A study of Mus musculus with 8 samples.

Results

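VAMPs are vesicle SNAREs, and the transcripts of 7 of them (Vamp1, Vamp2, Vamp3, Vamp4, Vamp5, Vamp7 and Vamp8) were examined with those of Snap23, Stx7 and Vti1b, SNAREs with which VAMPs pair. Affymetrix arrays measured them, on which each transcript is read by 1 or more groups of probes called probe sets, and levels are given as log2 intensity after RMA normalization, so that a difference of 1 is 2-fold. The 10 genes were chosen by name, and every probe set that carried the symbol of 1 of them alone was used. This gave 22 probe sets of 22626 tested, and the 10 genes are among 12393 that had such a probe set. A further probe set that names both Vamp1 and another gene was left out. The cells were immortalized hematopoietic progenitors from the fetal liver of embryonic day 14 Picalm fit1-5R mouse embryos, on the B6(Cg)-TyrC-2J/J background, whose mutation leaves no functional Picalm protein. MLL-ENL, delivered by retrovirus, had immortalized all of them, and they grew in medium that held stem cell factor at 50 ng/ml and IL-3 at 5 ng/ml. In PICALM-rescued cells the MSCVneo retroviral vector carried human PICALM cDNA, and Picalm-knockout cells received the empty vector. Lines PICALM6A, PICALM6B, PICALM6D and PICALM84, here 6A, 6B, 6D and 84, each gave 1 array of rescued and 1 of knockout cells, so that 4 rescued arrays were set against 4 knockout arrays, paired by line.

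A VAMP on a vesicle zips together with SNAREs on the target membrane, and the bundle pulls the membranes into fusion. After fusion the VAMP has to be retrieved, and PICALM, an adaptor of clathrin-coated pits, binds VAMP2, VAMP3 and VAMP8 directly and carries them back by endocytosis. In blood cells SNAREs serve granule release, the recycling of surface receptors and the fusion of endosomes and autophagosomes with lysosomes. The arrays measured transcripts, so they give no information on where the proteins were. In the mouse genome the 10 genes lie on chromosomes 1 (Vamp4), 2 (Snap23), 4 (Vamp3), 6 (Vamp1, Vamp5 and Vamp8), 10 (Stx7), 11 (Vamp2), 12 (Vti1b) and X (Vamp7).

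The probe table used here pairs no probe set with Picalm, so its level was not checked on these arrays. The study gives an immunoblot of PICALM for representative cells of both groups. It cautions that PICALM in rescued cells may be above physiological levels. Markers of hematopoietic progenitors were bright on all arrays (Ptprc at 12.22 to 12.54 and Mpo at 13.92 to 14.12, log2), with a mean over 9 markers of 11.47 to 11.70 in rescued and 11.55 to 11.76 in knockout cells, while 4 hepatocyte markers averaged 6.11 to 6.36 and 6.11 to 6.26. Within the progenitor list the members differed. Cd34, a surface protein of early progenitors, was at 8.93, 9.38, 9.64 and 11.09 in the rescued cells of lines 6A, 6B, 6D and 84, against 10.85, 11.01, 10.15 and 12.03 in the knockout cells. Its log2 difference was -1.25 (95% interval -1.84 to -0.66, limma adjusted p = 0.261), and that of Kit, the receptor of stem cell factor, was -0.26 (-0.47 to -0.06, 0.347). A second Kit probe set gave -0.08. Csf2rb and Spi1 went the other way, at 0.29 (limma adjusted p = 0.310) and 0.23 (0.318), each higher in 4 of 4 lines. Of the 9 markers, 6 were on average higher in rescued cells and 3 lower. Means of neutrophil and of mast cell markers were higher in the rescued cells of 4 of 4 lines. The mean over 5 neutrophil granule genes was 9.60 to 11.53 in rescued cells, against 7.95 to 8.94 in knockout cells, and that over 4 genes of mast cells and basophils was 6.16 to 10.58, against 5.80 to 8.51, with line 84 the highest in both groups. None of these markers passed in limma, as described below. SAM, the test of the methods, was computed here from its published statistic. With the lines paired it called Cd34 lower and Camp, Lcn2, Ngp and Cpa3 higher. Without pairing it called only Lcn2 of these markers, also higher. Of all 22626 probe sets it called 612 with pairing and 61 without. The study lists Camp, Lcn2, Ngp and Ltf as higher on the same arrays, so their direction is not independent evidence. The part of these markers in the SNARE values was not tested, and in bulk RNA a change in the share of mature cells and a change of RNA per cell cannot be told apart. For 2 measured erythroid markers of 4 the means were 5.56 to 6.61 and 5.42 to 6.07. Hba-a1 was dim on all arrays (4.90 to 4.97). Klf1 was at 8.33 in rescued and 7.17 in knockout cells of line 84, against 5.87 to 6.39 in the other lines.

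None of the 22 probe sets passed the test of rescued against knockout cells. The comparison was made in limma, a linear model with moderated variances, with a term for each cell line and the 12.3% false discovery rate (FDR) threshold of the methods. The study set that threshold on the FDR estimate of SAM. Here it was set on limma's adjusted p, so the number called is not the study's number. The limma fit called 0.0796% of all probe sets (18 of 22626), 0.00442% higher and 0.0751% lower, and 0.0646% of genes by their brightest probe set. The smallest adjusted p among the SNARE probe sets was 0.311, that of Vamp4. Of the 22, 3 were higher and 1 was lower at an unadjusted p under 0.05, where 6.17% and 6.32% of all probe sets were. The rescued array was above the knockout array of its line in 4 of 4 lines for 8 probe sets, where 12% of all were, and below it in 4 of 4 for 2, where 11.8% were. Several of the 8 belong to Vamp3, so they are not separate genes. With only the brightest probe set of each gene, 5 of 10 genes were above in every line and 1 below. Among all genes 13.4% and 12% were. The groups did not overlap for 2 probe sets, both with rescued cells higher (1.88% of all probe sets), and for none with rescued cells lower (1.57%; 3.45% either way). By the brightest probe set of each gene, 1 of 10 genes was higher at an unadjusted p under 0.05 (6.83% of all genes) and none was lower, and the median log2 fold change (rescued minus knockout) was 0.08 over the 10 genes and 0.01 over all genes. The count of 3 dropped to 1 without line 6B, 6D or 84, and the count of 1 to 0 without line 6A or 6D. SAM, the test named in the methods and computed here from its published statistic, called none of the 22, with the lines paired or not.

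**Figure D1:**
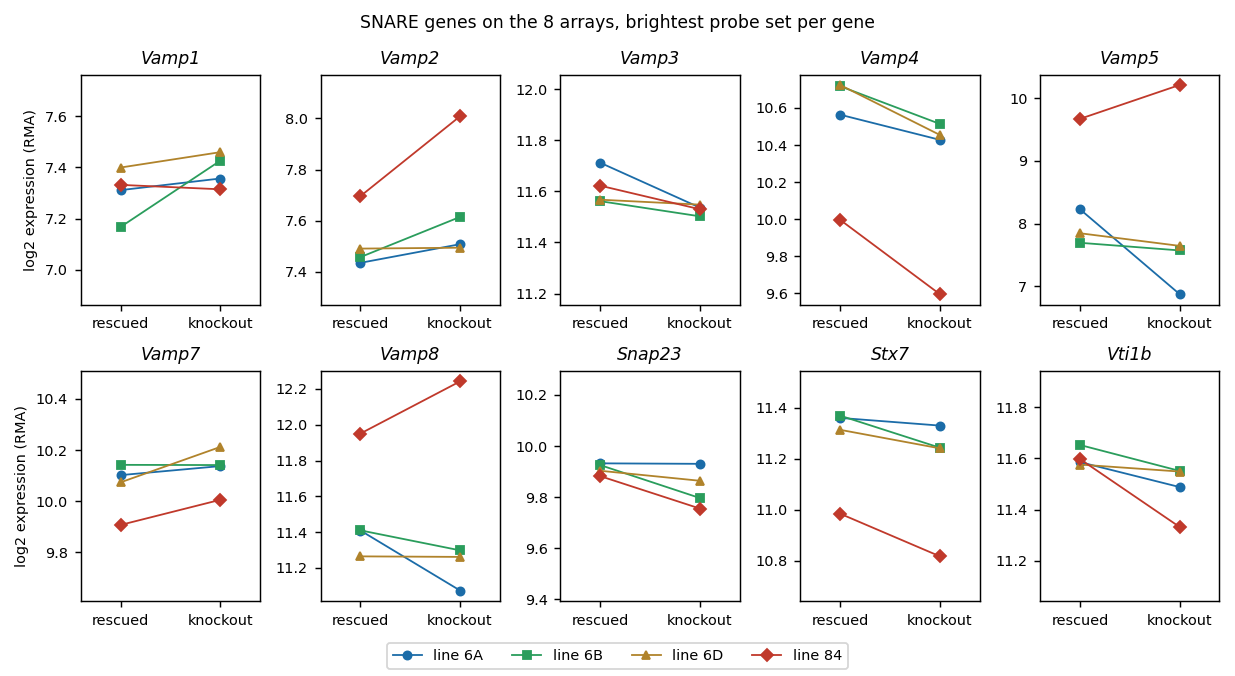
Log2 expression (y axis, RMA values) of the brightest probe set of each of the 10 genes in cells rescued with PICALM and in knockout cells (x axis), with a line joining the 2 arrays of each cell line. The difference between the groups is small beside the distance of line 84 from the other lines for Vamp4, Vamp5, Vamp8 and Stx7.

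Vamp3, also called cellubrevin, sits on recycling endosomes and is a cargo of PICALM. The brightest of its 5 probe sets was at 11.71, 11.56, 11.57 and 11.62 in the rescued cells of lines 6A, 6B, 6D and 84, against 11.54, 11.50, 11.55 and 11.53 in the knockout cells. The groups did not overlap, but the gap between them was narrow. The log2 fold change was 0.09 (95% interval -0.03 to 0.20, adjusted p = 0.488 in limma). A second bright probe set gave 11.36, 11.28, 11.28 and 11.35 in rescued cells, against 11.28, 11.14, 11.17 and 11.14 in knockout cells. Its difference of 0.13 (0.02 to 0.24) is a fold of 1.10, higher in 4 of 4 lines, with an adjusted p of 0.352. Of its 5 probe sets 4 were higher in all 4 lines, by 0.09 to 0.13 on average, but 3 of these 4 are of the kind (suffix x) whose probes can also pick up other transcripts. The remaining probe set differed by -0.22, -0.08, -0.01 and 0.37 in lines 6A, 6B, 6D and 84, and its mean difference was 0.01.

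Vamp2, a synaptobrevin known from synaptic vesicles and also a cargo of PICALM, was at 7.43, 7.46, 7.49 and 7.70 in rescued cells of the 4 lines in the same order, against 7.51, 7.61, 7.49 and 8.01 in knockout cells. The rescued array was the lower in each line, though in line 6D by less than 0.01. The log2 fold change was -0.14 (-0.29 to 0.02), or 1.10-fold lower, with an adjusted p of 0.437. The second probe set of Vamp2 was among the dimmest 40% of all probe sets and pointed the other way, at 0.12 (-0.10 to 0.35). Vamp1, the other synaptobrevin, was at 7.31, 7.17, 7.40 and 7.33 in rescued cells, against 7.36, 7.43, 7.46 and 7.31 in knockout cells, so that the groups overlapped (-0.09, -0.23 to 0.06, adjusted p = 0.563). Its dimmer probe set gave -0.08.

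Vamp8, or endobrevin, works in the fusion of late endosomes and autophagosomes with lysosomes and in granule release, and is also a cargo of PICALM. It was at 11.41, 11.41, 11.26 and 11.95 in rescued cells, against 11.07, 11.30, 11.26 and 12.24 in knockout cells. In line 6A the rescued array was the higher by 0.34 and in line 84 the lower by 0.29, with 0.11 and 0.00 in lines 6B and 6D. The mean difference was 0.04 (-0.22 to 0.29, adjusted p = 0.892), and without line 6A it was -0.06. The lines thus had no shared direction for Vamp8.

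Vamp4, a SNARE of the trans-Golgi network and endosomes, had the smallest p of the 10 genes. Its brightest probe set was at 10.56, 10.72, 10.72 and 10.00 in rescued cells, against 10.43, 10.51, 10.45 and 9.59 in knockout cells. The rescued array was the higher in 4 of 4 lines, by 0.14, 0.20, 0.27 and 0.40. The log2 fold change of 0.25 (0.11 to 0.39) is a fold of 1.19, and did not pass (adjusted p = 0.311 in limma, and 0.972 without the line as a block). A second probe set gave a similar mean, 0.22 (-0.06 to 0.49), but was lower by 0.15 in line 6A, and the third, which was dim, gave -0.01.

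Vamp7, which has a longin domain and acts at late endosomes and lysosomes, was at 10.10, 10.14, 10.07 and 9.91 in rescued cells, against 10.14, 10.14, 10.21 and 10.01 in knockout cells (-0.07, -0.18 to 0.05, adjusted p = 0.562). Its second probe set was at 8.27, 8.44, 8.49 and 8.08, against 8.64, 8.57, 8.65 and 8.18, and was lower in 4 of 4 lines. That difference was -0.19 (-0.34 to -0.04), or 1.14-fold lower, with an adjusted p of 0.345.

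The 3 partner SNAREs act on the target side. Vti1b, which forms a late endosomal complex with Stx7 and Vamp8, was at 11.59, 11.65, 11.58 and 11.60 in rescued cells, against 11.49, 11.55, 11.55 and 11.33 in knockout cells. The groups did not overlap, and the difference was 0.12 (-0.01 to 0.26, adjusted p = 0.425). Stx7, a syntaxin of late endosomes, was at 11.36, 11.37, 11.31 and 10.98, against 11.33, 11.24, 11.24 and 10.82, a difference of 0.10 (-0.01 to 0.21, adjusted p = 0.437) with the rescued array the higher in 4 of 4 lines. Snap23, the widely expressed relative of neuronal Snap25 at the plasma membrane, was at 9.93, 9.93, 9.90 and 9.88 in rescued cells, against 9.93, 9.80, 9.86 and 9.76 in knockout cells. Its difference was 0.07 (-0.04 to 0.19, adjusted p = 0.534), and its other probe sets gave 0.07 and 0.02. For these 3 genes the intervals end at or below 0.26, so that larger increases lie outside them.

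**Figure D2:**
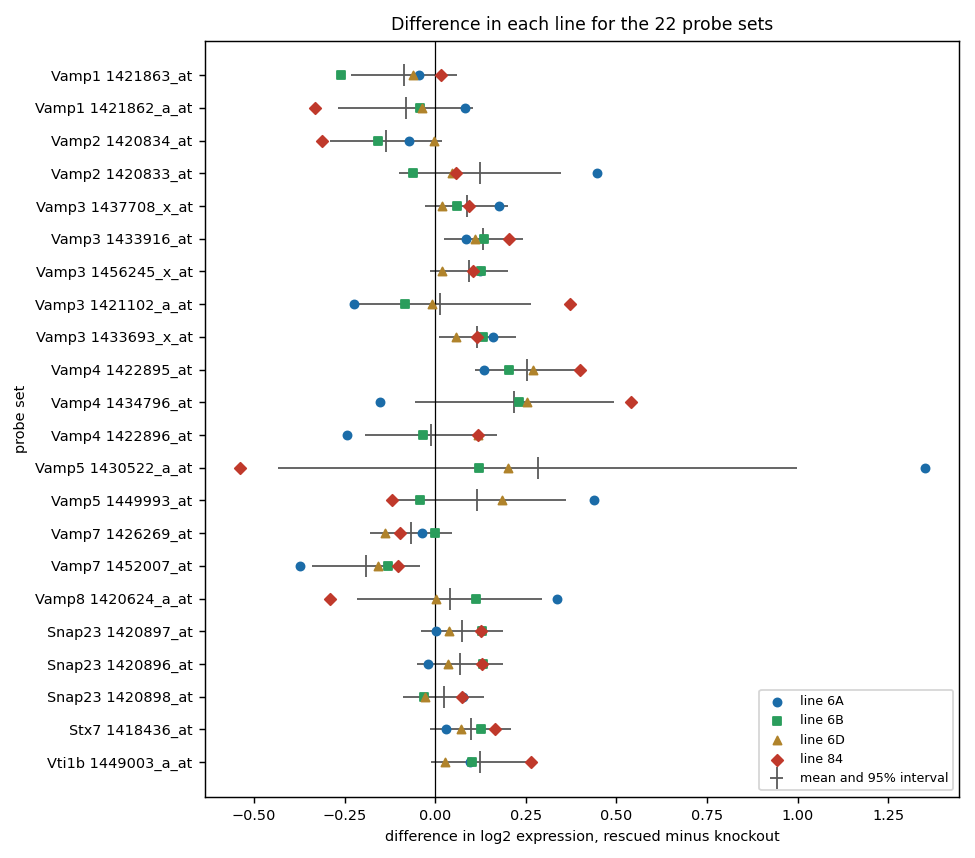
Difference in log2 expression between rescued and knockout cells (x axis) for each of the 22 probe sets (y axis), with a point for each cell line and a bar for the mean and its 95% interval from limma. The 2 probe sets of Vamp5 and that of Vamp8 have line 6A on the right and line 84 on the left, while the intervals of most other probe sets are narrower.

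Vamp5, or myobrevin, is a VAMP first described in muscle, and its values spread more widely over the 8 arrays than those of the other 9 genes. Its brightest probe set was at 8.23, 7.70, 7.85 and 9.67 in rescued cells, against 6.88, 7.57, 7.65 and 10.21 in knockout cells. The rescued array was higher by 1.35 in line 6A, by 0.12 and 0.20 in lines 6B and 6D, and lower by 0.54 in line 84. The mean difference was 0.28 with a wide interval (-0.43 to 1.0, adjusted p = 0.699). It was -0.07 without line 6A and 0.56 without line 84. The dimmer probe set of Vamp5 went by 0.44, -0.04, 0.18 and -0.12 in the same lines. Differences between the lines in the size of the change were not tested, since each line had 1 array per group.

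More of the probe sets passed a test between lines than one between groups. In the same fit, a limma F-test of the line terms called 7 of the 22 probe sets at the same FDR threshold, where 23% of all probe sets were called, and 5 of the 10 genes by their brightest probe set, where 24.7% of all genes were. The 7 were the brightest probe sets of Vamp2, Vamp4, Vamp5, Vamp8 and Stx7, the dimmest of Vamp4 and the second of Vamp7. Line means were 7.55, 7.63, 7.75 and 9.94 for Vamp5 (adjusted p = 0.0403) and 11.24, 11.35, 11.26 and 12.10 for Vamp8 (0.0405), so that line 84 was above the other 3 lines, which lay close together. For Vamp4 the means were 10.5, 10.62, 10.59 and 9.80 (0.00965) and for Stx7 11.34, 11.31, 11.28 and 10.90 (0.0281), with line 84 below the others. For Vamp2 line 84 was the highest, at 7.85 against 7.47 to 7.54 (0.0924). Snap23, Vti1b, Vamp1 and the brightest probe sets of Vamp3 and Vamp7 did not pass (adjusted p of 0.222 to 0.720). Both arrays of line 84 lay below all 6 others in 8 of the 22 and above them in 5, where 17.5% and 21.7% of all probe sets did. Without line 84, 0 of the 22 were called between the remaining 3 lines in limma. The share of all probe sets called in that smaller fit was not counted, so the 0 cannot be read as particular to these genes.

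Vamp5 and Vamp8 thus shared a pattern over the arrays, with the highest level in line 84, a lower rescued array there and a higher one in line 6A. They are next to each other among the protein-coding genes of mouse chromosome 6. Of other gene groups, 3 measured genes of the interferon response (Ifit1, Irf7 and Oasl2, of 5 listed) were also highest in line 84, with a mean of 6.44 in its rescued and 9.48 in its knockout cells, against 4.96 to 5.05 and 5.00 to 5.09 in the other lines. In line 6A, where Vamp5 differed most, that mean was 5.05 in rescued and 5.09 in knockout cells. Ifit1 and Oasl2 are among the dimmest 40% of probe sets by their mean. Outside line 84 they were at 4.14 to 4.35 and 3.90 to 4.09, so a change there could be missed. The mean of the mast cell and basophil genes was also highest in line 84 but was higher in the rescued cells, at 10.58 against 8.51. In line 6A it was higher in the rescued cells too, at 7.36 against 6.22. Whether either group has a part in the levels of Vamp5 and Vamp8 was not tested.

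**Figure D3:**
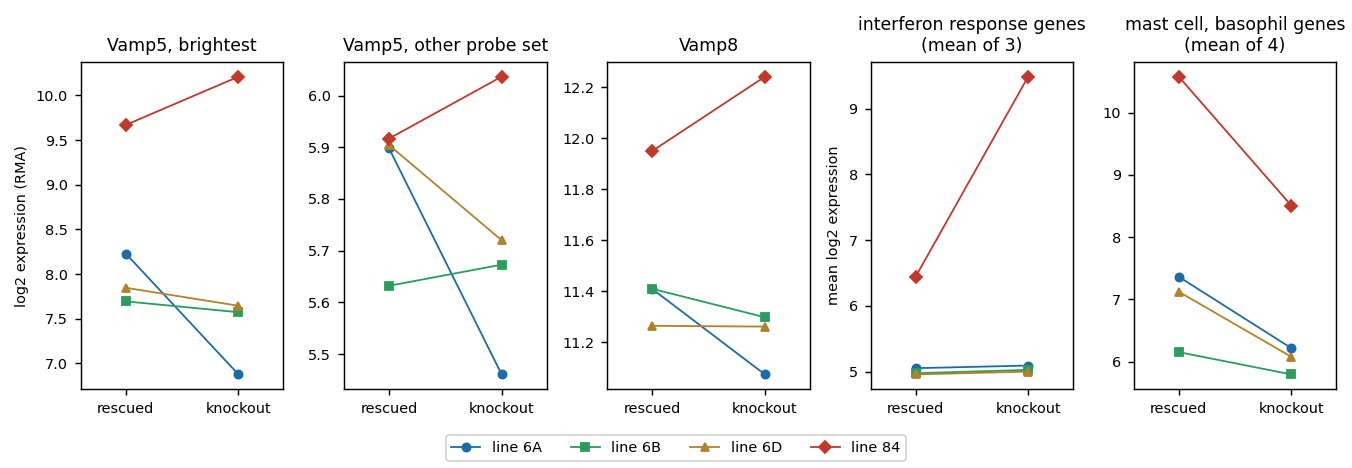
Log2 expression (y axes) of both Vamp5 probe sets and of Vamp8, and mean log2 expression of 3 interferon response genes and of 4 mast cell and basophil genes, in rescued and knockout cells (x axis) of each line. Line 84 is above the other lines in every panel. Line 6A has a higher rescued value for Vamp5, Vamp8 and the mast cell and basophil genes, but not for the interferon genes. Of the interferon genes, Ifit1 and Oasl2 were dim outside line 84.

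The start regions of this neighbouring pair are shown because the pair shared its pattern over the lines. They run from 250 bases before to 50 after the start of the gene, are taken from RefSeq on build GRCm38.p6, and are written 5′ to 3′ on the strand of the gene. Vamp5 is at chr6:72380419-72380718 and Vamp8 at chr6:72390618-72390917, both on the minus strand. Capitals mark the match to a searched motif.
Vamp5: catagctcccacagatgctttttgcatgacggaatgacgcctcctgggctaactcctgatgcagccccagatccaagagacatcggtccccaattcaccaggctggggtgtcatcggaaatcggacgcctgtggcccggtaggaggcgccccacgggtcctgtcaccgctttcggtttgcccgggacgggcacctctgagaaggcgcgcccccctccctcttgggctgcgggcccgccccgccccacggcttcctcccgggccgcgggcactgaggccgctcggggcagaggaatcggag
Vamp8: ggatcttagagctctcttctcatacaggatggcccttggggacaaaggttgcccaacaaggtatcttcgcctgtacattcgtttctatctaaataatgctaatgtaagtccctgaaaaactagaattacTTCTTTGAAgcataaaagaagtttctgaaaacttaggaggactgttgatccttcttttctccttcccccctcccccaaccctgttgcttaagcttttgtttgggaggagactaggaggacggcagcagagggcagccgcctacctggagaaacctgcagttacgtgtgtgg
The motifs searched, on both strands, were the core of the interferon-stimulated response element (GAAA, any 2 bases, GAAA), the STAT site TTCNNNGAA, the core TCACGTGA of the element bound by lysosomal regulators of the TFEB family, and the sterol element TCACNCCAC. Vamp8 held the STAT motif, which 8.3% of 32851 such regions held, and Vamp5 held none of the 4 motifs. Such regions were at hand for 7 of the 10 genes, in 9 forms. Among the others only Vamp1 held a match, to the interferon element, as did 3.44% of all regions, and TCACGTGA and TCACNCCAC were in none of the 9 (0.974% and 1.24% of all). A match is a stretch of letters and not a measured binding site.

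The other genes of the SNARE machinery were described with the brightest probe set of each. None of them passed in limma with the line as a block, while SAM with the lines paired called Stxbp4 lower and Rab5b higher, and unpaired SAM called none. Of all 12393 genes by their brightest probe set, paired SAM called 342 and unpaired SAM 30. Of 28 other SNAREs, 24 were measured, with the rescued array above in 4 of 4 lines for 8 and below for 4, where 13.4% and 12% of all genes were. Their median log2 fold change was 0.02. Stx3, a syntaxin of the plasma membrane, had the largest difference, 0.58 (0.12 to 1.04, adjusted p = 0.346), and was at 8.26, 7.93, 8.32 and 9.49 in rescued cells, against 7.99, 7.66, 7.85 and 8.18 in knockout cells. Line 84 differed by 1.31 and the other lines by 0.27 to 0.47. Of the other 2 Stx3 probe sets, 1 gave 0.15 and 1 gave -0.13, with the rescued array below in 4 of 4 lines. Stx2, another plasma membrane syntaxin, was at 9.08, 8.96, 8.96 and 7.74, against 8.72, 8.63, 8.83 and 7.15, a difference of 0.35 (0.15 to 0.55, adjusted p = 0.312) with line 84 below the others as for Stx7 and Vamp4. Sec22b, a SNARE between endoplasmic reticulum and Golgi, differed by 0.16 (adjusted p = 0.346).

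Of 20 genes that take SNAREs apart or prepare them for fusion, 15 were measured, and their median was 0.01. The rescued array was above in every line for 4 and below for 4, where 13.4% and 12% of all genes were. Stxbp4, which binds syntaxin, was at 5.97, 5.74, 5.93 and 6.17 in rescued cells, against 6.30, 6.20, 6.24 and 6.66 in knockout cells, with no overlap. The difference was -0.40 (-0.53 to -0.27), 1.32-fold lower, with an adjusted p of 0.178. A second Stxbp4 probe set gave 0.03, above in 2 lines and below in 2, and the probe set described is among the dimmest 40%, as are those of Cplx2 and Unc13b. The study lists this gene as lower on the same arrays, so its direction is not independent evidence. Cplx2, a complexin, differed by 0.17 (adjusted p = 0.353) and Unc13b, a priming factor, by -0.22 (0.383).

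Among 11 measured of 15 endosomal tethers and Rab GTPases, the rescued array was above in every line for 4 and below for none. Among all genes 13.4% and 12% were. The median over the 11 was 0.06. Rab5b, a GTPase of early endosomes, was at 7.31, 7.48, 7.54 and 7.41 in rescued cells, against 7.07, 7.29, 7.19 and 7.02 in knockout cells, with no overlap and a difference of 0.29 (0.16 to 0.43, adjusted p = 0.254). Rab5c, its relative, differed by 0.09 (0.427), and Vps11, a core subunit of the tethers that guide fusion with late endosomes and lysosomes, by 0.15 (0.356). Of the adaptors that sort VAMPs and Vti1b, 5 of 6 were measured, and Agfg1, which carries VAMP7, differed by 0.13 (0.444), Ap3d1, a subunit of an adaptor complex that binds VAMP7, by 0.08 (0.513), and Snap91, the neuronal relative of PICALM, by -0.02 (0.939). The median over these 5 was -0.01.

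**Figure D4:**
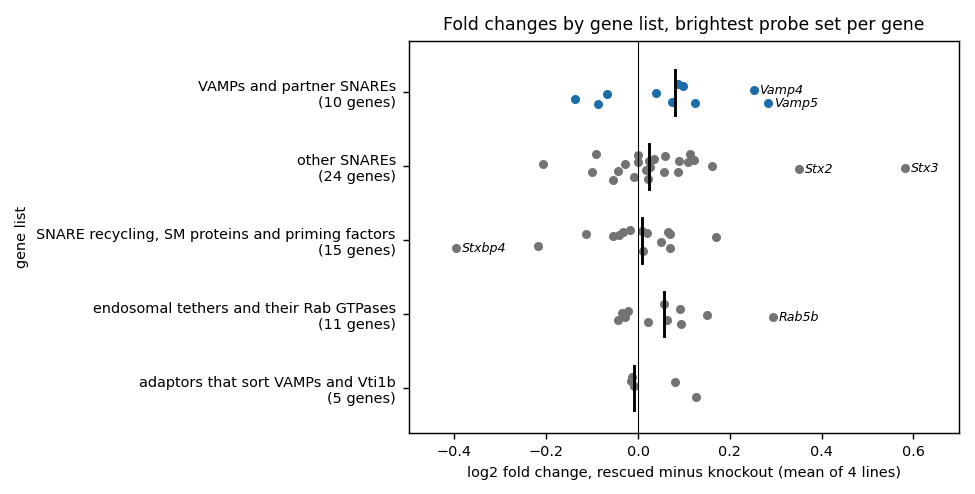
Log2 fold change, rescued minus knockout (x axis), of each gene in 5 lists of the SNARE machinery (y axis), with a point for each gene and a bar for the median of the list. The medians lie between -0.01 and 0.08, and the farthest genes are Stx3 at 0.58 and Stxbp4 at -0.40.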

How the data were processed

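The authors hybridized RNA of 8 cultures to Affymetrix arrays and normalized them by RMA. They deposited log2 values. The version of the RMA software is not given in the sources used here. The sample labels name the A version of the mouse array. Of 22690 probe sets, 64 controls were left out, and the probe table gave 20380 of the 22626 others 1 gene symbol, 691 several and 1555 none. No filter on signal was set, and 0 columns were unmapped. Array medians ran from 7.32 to 7.35. Where a gene had several probe sets, the brightest stands for it.

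Rescued and knockout arrays were compared in limma 3.58.1 (R 4.3.3) with the cell line as a block, two-sided, with Benjamini-Hochberg adjusted p over all probe sets. The arrays pair because both of a pair come from the same line, and within a pair the departures from the means of the groups had a correlation of 0.623 to 0.811. Intervals are limma's 95% intervals. The p-values of this comparison measure the spread of the rescued minus knockout difference over the 4 lines, whose small number limits the precision. The scripts were tested on simulated data. SAM was computed here from its published statistic, so its calls can differ from those of the study's software. It used all 16 sign changes or 70 arrangements. All 10 genes were described with every probe set, and of each other list up to 3 genes with the smallest p. The genes and lists were chosen with earlier results of these data known. Alternatives are given in the closing section.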

Additional observations from a re-analysis of the deposited data

Results flagged for a closer look

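Each group of 4 arrays was searched for an array far from the other 3 by Dixon's criterion, in the 22 SNARE probe sets and the 12 other genes named. It marked 8 of 68 groups, where chance marks about 5%. Several of the groups share a gene or a line, so they are not independent. The search was not run over all probe sets. Among all probe sets, both arrays of line 84 lay below all other arrays in 17.5% and above them in 21.7%. Line 84 accounted for 7 of the 8 marked groups. In the rescued group these were Stx7 (10.98, against 11.31 to 11.37 in the other lines), Stx2 (7.74, against 8.96 to 9.08) and Sec22b (10.74, against 10.97 to 11.00). In the knockout group they were Vamp4 with its brightest probe set (9.59, against 10.43 to 10.51) and its dimmest (4.99, against 5.43 to 5.51), Stx2 (7.15, against 8.63 to 8.83) and Ap3d1 (10.10, against 10.38 to 10.43). The remaining array was the rescued array of line 6B for the dimmer probe set of Vamp5 (5.63, against 5.90 to 5.92).

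Vamp5 and Vamp8 differed in opposite directions in lines 6A and 84, each by over 1.2-fold, a size chosen after the values were seen. On the log2 scale, rescued minus knockout, line 6A gave 1.35 for Vamp5 and 0.34 for Vamp8, while line 84 gave -0.54 and -0.29. The difference between the lines was not tested.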

How the results depend on the processing

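No SNARE probe set was called under any alternative, which were limma without the replicate block, SAM paired and unpaired, the methods' t-test after adjustment, quantile normalization, centring on the array median, leaving out the dimmest 40% (18 of 22 left), weighted arrays, an intensity trend in the variance with robust fitting, calls at 0.05, and omission of each array or line in turn. Over all probe sets the paired limma fit called 1 higher and 17 lower, limma without the block and the methods' t-test 0 and 0 (1074 and 1179 at an unadjusted p under 0.05), the fit without the dimmest probe sets 0 and 21, array weights 25 and 92, trend and robust settings 19 and 81, SAM paired 137 and 475, and SAM unpaired 22 and 39. At an unadjusted p under 0.05, 3 SNARE probe sets were higher and 1 lower in the paired fit, 1 and 0 without the block and in the methods' t-test, and 6 and 1 with trend and robust settings. Leaving out an array or a line gave 0 to 3 higher and 0 to 1 lower. The 7 probe sets that differed between lines became 4 with array weights, 8 without the dimmest 40% and 9 with trend and robust settings. They became 0 to 7 when a line was left out, with 0 without line 84. The share of all probe sets that differed between lines was not counted under these alternatives. Leaving out arrays or lines turned the sign of the log2 fold change of Vamp5 (-0.15 to 0.99; negative without line 6A, its knockout array or the rescued array of line 84), Vamp8 (-0.11 to 0.30; negative without line 6A, the rescued array of line 84 or the knockout array of 6A, 6B or 6D) and Stx7 (-0.015 to 0.19; negative without the knockout array of line 84), none of which was called in any fit. Omitting a single array compares unpaired group means, so the level of the line left in 1 group only enters these values. With both arrays of line 84 left out, the pairs gave 0.56 for Vamp5, 0.15 for Vamp8 and 0.08 for Stx7. Averaging the probe sets of a gene changed no direction but gave -0.01 for Vamp2 (-0.14 with the brightest) and -0.13 for Vamp7 (-0.07).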
